A study of Mus musculus with 6 samples.

Results

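The genes of glycolysis and of the pentose phosphate pathway were followed in marginal zone B cells with a conditional knockout of CK2α. The list holds 39 mouse genes, chosen by symbol: glucose and lactate transporters, each enzyme step of glycolysis with its isoenzymes, the regulators of phosphofructokinase and of pyruvate dehydrogenase, and the enzymes of the pentose phosphate pathway. Of these, 38 have a row in the table of 14864 genes, matched by Ensembl identifier through the GENCODE M21 names. The other gene, Ldhb, has no row and was not analysed here. RNA was measured by bulk sequencing in marginal zone B cells sorted by flow cytometry from the spleens of C57BL/6 mice at 8 weeks of age. The groups are 3 libraries labelled CK2α-cKO (cKO) and 3 labelled wild type (WT), and both carry the same strain, tissue and age labels. The sources used here do not give the Cre line, the deleted exons, the sort gates, the sex or any batch. The labels do not say that each library came from its own mouse, so p-values reflect only the spread among the 6 libraries, part or all of which may be technical.

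Glycolysis turns glucose into pyruvate, with a small yield of ATP, and pyruvate either becomes lactate, which regenerates NAD+, or enters mitochondria through pyruvate dehydrogenase. The pentose phosphate pathway branches off at glucose 6-phosphate, makes NADPH in its oxidative arm, and exchanges sugar phosphates with glycolysis through its non-oxidative arm. B cells are known to take up more glucose and to run both pathways faster when they are activated. CK2 is a serine/threonine kinase built of catalytic and regulatory subunits, and Csnk2a1 encodes the catalytic CK2α.

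The deposited values are read counts scaled for each library, called normalised reads below, and each list of values runs from replicate 1 to replicate 3. Multiplying back gave 20054583 to 23503756 reads in the cKO libraries and 18778776 to 21067977 in the WT libraries. A log2 difference is cKO minus WT on the scale log2(normalised reads + 1), given with its standard error, and the words rose and fell are kept for genes whose limma adjusted p was under 0.05. Csnk2a1 (ENSMUSG00000074698), the targeted gene, had 4124, 3951 and 4060.4 normalised reads in the cKO libraries, against 4069, 3861 and 3939 in the WT libraries, and its groups overlapped (log2 difference 0.03 ± 0.05, limma adjusted p = 0.734). The mRNA of the targeted gene was therefore not lower in the libraries labelled cKO, and the direction of each result below rests on the labels. Summed over 6 B cell markers, led by Ms4a1, Cd79a and Pax5, the level was 169006 to 174110.1 in cKO and 165187 to 176643 in WT, and none of the 6 passed the test. Summed over 10 marginal zone B cell markers, led by Cr2, Dtx1 and Plac8, the level was 134519 to 166403 in cKO and 128867 to 141283 in WT, with 5 of 10 risen and none fallen. Summed over 5 follicular B cell markers, led by Cxcr5, Klf2 and Fcer2a, the level was 21006 to 27221 in cKO and 25501 to 27266 in WT, with 3 of 5 fallen and none risen. Over all genes tested, 5.08% rose and 4.97% fell. With any one library left out, 5 to 6 of the 10 marginal zone markers were called as risen. Without cKO replicate 3 or WT replicate 1 or 3, none of the 5 follicular markers was called.

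Of the 38 measured genes, all of which passed the filter on a mean of at least 10, 7 rose and 3 fell in cKO, and 28 did not pass the test. The 7 risen genes are 18.4% of the 38, beside 5.08% of the 14855 genes tested, and the 3 fallen genes are 7.89%, beside 4.97%. Taking both directions, 26.3% of the 38 were called, beside 10.1% of all genes tested. With edgeR on recovered reads the same 10 genes were called, where 9.92% of all genes were, and DESeq2 called 10 as well, where 11.0% of all genes were. An unadjusted limma p under 0.05 was reached by 18 of the 38 and by 26.8% of all genes tested. Highly expressed genes were called more often in the whole table, with 7.41% risen and 7.13% fallen among the 4560 genes with a mean of at least 1000. Of the 22 pathway genes with such a mean, 6 rose and 1 fell. The risen genes were Pgk1, Rpe, Taldo1, Gapdh, Pfkfb3, Gpi1 and Pdha1, and the fallen genes were Pfkp, Pfkfb4 and Hk2. Their changes were small, from 0.790-fold (95% interval 0.726 to 0.860) for Pfkp to 1.24-fold (95% interval 1.12 to 1.37) for Pgk1. The median log2 difference over the 38 genes was 0.08, beside -0.000864 over all genes tested. The 3 cKO values all lay above the 3 WT values for 13 genes and below them for 6, beside 15.9% and 15.6% of all genes tested, and the groups overlapped for 19. An exact permutation test of 3 libraries against 3 cannot go below 0.1, the two-sided p that each of these 19 non-overlapping genes reached.

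**Figure D1:**
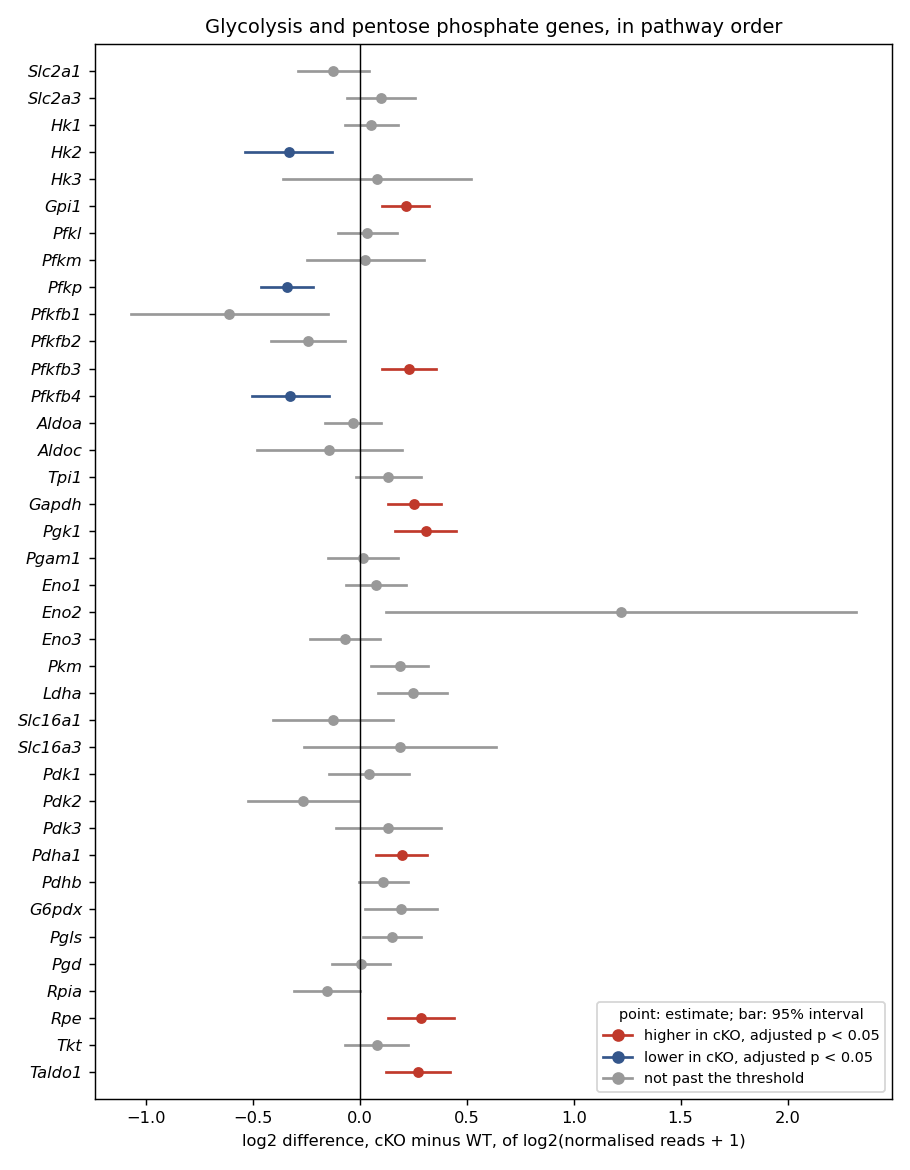
Log2 difference (cKO minus WT) of log2(normalised reads + 1) for the 38 measured genes in pathway order, as points with 95% intervals, with genes past the threshold in colour. The 3 fallen genes, Hk2, Pfkp and Pfkfb4, stand in the upper part of the plot, and the intervals of most other genes include 0 or come close to it.

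Most of these calls rested on all 6 libraries being present. Pfkp was called in each of the 6 fits that left out one library. Without WT replicate 3 or without cKO replicate 3, it was the only pathway gene called, and without WT replicate 1 it was joined only by Eno2. The number of risen genes was 2, 6 and 0 without cKO replicate 1, 2 and 3, against 7 with all libraries. It was 1, 6 and 0 without WT replicate 1, 2 and 3. These counts include genes not called with all libraries. Without WT replicate 1 the risen gene was Eno2. Without WT replicate 2, Pkm and Ldha were gained, and Pfkfb3, Pdha1 and Rpe were lost. The number of fallen genes was 2, 2 and 1 without cKO replicate 1, 2 and 3, and 1, 2 and 1 without WT replicate 1, 2 and 3, against 3. Over the whole table, where 755 genes rose and 739 fell with all 6 libraries, these fits called between 247 (without cKO replicate 3) and 787 (without cKO replicate 2) as risen and between 221 (without WT replicate 1) and 943 (without cKO replicate 2) as fallen. No log2 difference of a called gene changed its sign in these fits.

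Within the WT group the values were not evenly spread. WT replicate 2 had the highest WT value for 23 of the 38 genes, and WT replicate 1 had the lowest for 22 of them. Markers of red cells and of macrophages were highest in the same WT replicate 2. The summed level of 10 erythroid markers, led by Hbb-bs, Hba-a1 and Hba-a2, was 5502, 1509 and 882 in cKO, against 1631, 11547 and 752 in WT, and that of 10 macrophage and monocyte markers, led by Lyz2, Adgre1 and Csf1r, was 3050, 1601 and 1747 in cKO, against 1948, 3172 and 1971 in WT. None of these 20 markers passed the test between the groups. Of 8 T cell markers only Cd4, Cd8a and Lat have a row, with a summed level of 40.2 to 52.6 in cKO and 64.8 to 92.0 in WT, and of 8 neutrophil markers only S100a8, S100a9 and Ngp have one, at 23.7 to 131 in cKO and 55.8 to 151 in WT. Of 6 plasma cell markers, led by Irf4, Xbp1 and Jchain, 5 have a row, with a summed level of 7390.5 to 8895 in cKO and 9243 to 13617 in WT. Of these 5, 1 fell, Irf4, beside 4.97% of all genes tested. Of 6 platelet markers, led by Itgb3, Gp1ba and Itga2b, 4 have a row and none passed, at 631 to 833 in cKO and 675 to 848 in WT. The part of these markers, and of the B cell subset markers, in the levels of the pathway genes was not tested. In bulk RNA, fewer cells of a type and less RNA per cell cannot be told apart.

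Set against transcript length, the genes spanned a wide range of levels. Gapdh had 6732 normalised reads per kb in cKO and 5648 in WT and was the highest of the 38, followed over both groups by Aldoa, Gpi1, Pkm, Eno1 and Ldha. Means of Gpi1 (3393 per kb) and Pkm (3371 per kb) were nearly equal. Eno2, the neuronal enolase, was the lowest, at 8.18 per kb in cKO and 3.96 in WT, below the lactate exporter Slc16a3 at 10.9 in cKO and 9.54 in WT. Of the pentose phosphate genes, Taldo1 and Pgls were the highest per kb, at 2479 and 2448 over both groups.

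**Figure D2:**
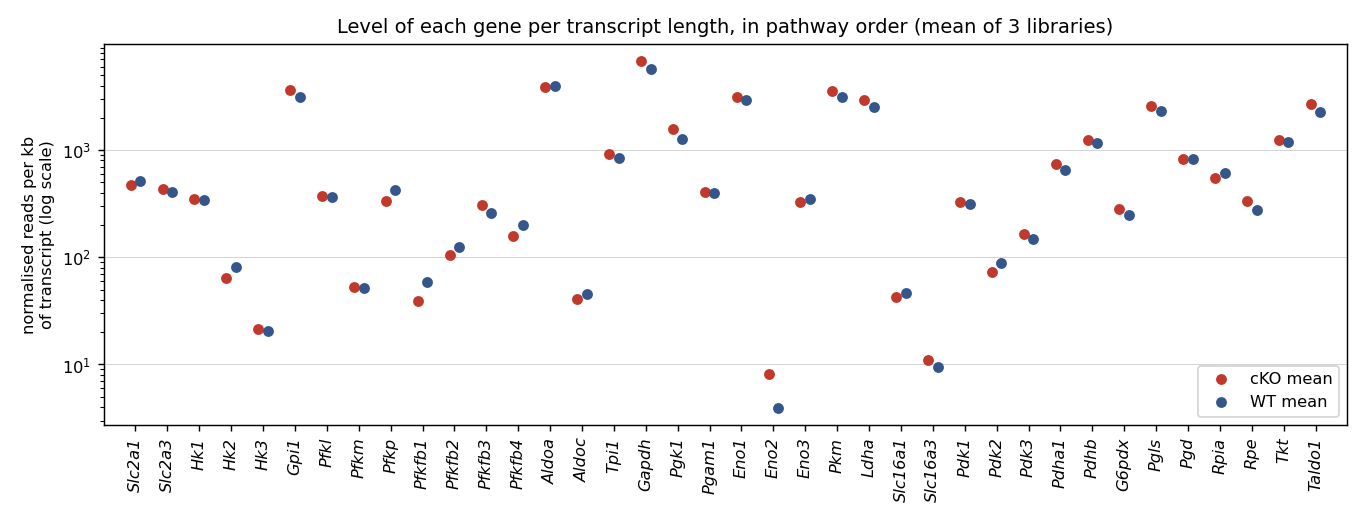
Mean level of each of the 38 measured genes in normalised reads per kb of transcript (log axis), in pathway order, with the mean of 3 cKO libraries left of the mean of 3 WT libraries. Gapdh is the highest at 6732 in cKO and 5648 in WT, and Eno2 the lowest at 8.18 in cKO and 3.96 in WT.

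The upstream sequences of 4 genes are shown to set both directions side by side: Pgk1 and Gapdh, which had the smallest adjusted p among the risen, and Pfkp and Hk2, which had the lowest folds among the fallen. Each runs over the 250 bases before the transcription start, from RefSeq on GRCm38.p6, with the start just after the last base. Capitals mark ACGTG or GCGTG on either strand, the pair of forms of the core that hypoxia-inducible factors bind, so that CACGT and CACGC in capitals are matches on the other strand. The Pgk1 stretch is chrX:106186850-106187099 on the plus strand, that of Gapdh chr6:125165774-125166023 on the minus strand, that of Pfkp chr13:6648772-6649021 on the minus strand and that of Hk2 chr6:82774455-82774704 on the minus strand.
Pgk1: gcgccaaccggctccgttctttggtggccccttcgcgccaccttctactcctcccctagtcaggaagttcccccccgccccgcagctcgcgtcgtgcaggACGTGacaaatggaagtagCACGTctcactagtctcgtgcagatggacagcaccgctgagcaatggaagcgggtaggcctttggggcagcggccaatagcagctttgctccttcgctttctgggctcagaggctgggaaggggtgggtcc
Gapdh: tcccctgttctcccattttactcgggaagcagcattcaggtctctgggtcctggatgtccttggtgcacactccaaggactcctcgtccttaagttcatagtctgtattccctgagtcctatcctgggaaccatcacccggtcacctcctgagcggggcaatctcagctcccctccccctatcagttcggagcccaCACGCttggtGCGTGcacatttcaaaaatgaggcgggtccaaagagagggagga
Pfkp: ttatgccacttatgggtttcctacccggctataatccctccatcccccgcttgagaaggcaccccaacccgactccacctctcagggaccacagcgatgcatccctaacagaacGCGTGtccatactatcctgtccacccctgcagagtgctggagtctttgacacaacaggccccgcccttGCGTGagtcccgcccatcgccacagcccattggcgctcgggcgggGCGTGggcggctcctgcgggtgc
Hk2: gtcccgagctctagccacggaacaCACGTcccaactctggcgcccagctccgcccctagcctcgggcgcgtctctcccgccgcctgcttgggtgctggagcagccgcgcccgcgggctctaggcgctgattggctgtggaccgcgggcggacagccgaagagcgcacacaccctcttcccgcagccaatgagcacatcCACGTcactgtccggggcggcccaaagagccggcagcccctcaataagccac
The Pgk1, Gapdh and Hk2 stretches held 2 matches each and the Pfkp stretch 3, so the motif stood upstream of genes that rose and of genes that fell.

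RefSeq had 58 promoter windows for 38 of the 39 listed genes, Ldhb included and Slc2a3 excepted, each from 250 bases before to 50 bases after a start. ACGTG or GCGTG, on either strand, lay in 75.9% of these windows, beside 43.8% of all 32851 RefSeq promoter windows of the same length. Apart, ACGTG lay in 41.4% beside 19.6%, and GCGTG in 56.9% beside 32.4%. The pathway windows were also richer in G and C, with a median of 60.3% beside 52.7%, and in CpG, with a median of 19 beside 7, and both motifs contain a CpG. The E-box CACGTG, which Myc and its relatives bind and which contains ACGTG, lay in 10.3% beside 7.15%, namely in windows of Pfkfb2, Pfkfb3, Pfkm, Slc16a1, Ldha and Pdk2. A gene with more windows has more chances of a match, and the listed genes had 58 windows for 38 genes, beside 32851 for 27025. Counted by gene, 34 of the 38 held ACGTG or GCGTG in a window, beside 12628 of all 27025 genes with a RefSeq window. Among the genes that rose, 5 of 7 did, Gpi1 and Rpe being without a match, and among those that fell, 3 of 3. A match describes letters in a window and not a bound site.

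At the entry of the pathway, the glucose transporters overlapped between groups. Slc2a1 (GLUT1) had 1538, 1583 and 1514 normalised reads in the cKO libraries, against 1892, 1546 and 1629.7 in the WT libraries, with a log2 difference of -0.12 ± 0.08 (limma adjusted p = 0.319). Slc2a3 (GLUT3) had 1802, 1599 and 1767 normalised reads in the cKO libraries, against 1485, 1730.5 and 1611 in the WT libraries, with 0.10 ± 0.07 (limma adjusted p = 0.412). Among the WT libraries, replicate 1 was the highest for Slc2a1 and the lowest for Slc2a3.

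Hexokinases trap glucose in the cell by phosphorylating it, and here the inducible form fell while the constitutive form did not pass the test. Hk2 (ENSMUSG00000000628) had 386, 340.2 and 334 normalised reads in the cKO libraries, against 423, 447 and 466 in the WT libraries. Each cKO library lay below each WT library, and cKO replicate 1 was the nearest to them. The means were 354 ± 28.3 in cKO and 445 ± 21.5 in WT (SD, n = 3 each), a log2 difference of -0.33 ± 0.09 or 0.794-fold (95% interval 0.690 to 0.913), close to the threshold (limma adjusted p = 0.0442). The Hk2 call was lost without cKO replicate 2 or 3 or WT replicate 1, 2 or 3 (highest limma adjusted p 0.151). It was also lost with replicate number added to the fit as a block. Hk1, the most abundant form, had 1379.9, 1323.8 and 1373.4 normalised reads in the cKO libraries, against 1280.4, 1323.7 and 1323.5 in the WT libraries, with a difference of 0.05 ± 0.06 (limma adjusted p = 0.584). Its groups did not overlap, but the lowest cKO value and the highest WT values were within 1 normalised read of each other. Hk3 was low, at 74.9, 58.8 and 74.3 normalised reads in the cKO libraries, against 71.4, 71.7 and 53.8 in the WT libraries (limma adjusted p = 0.838). Per kb of transcript, Hk1 made up 80.5% ± 0.991 of hexokinase transcripts in cKO and 77.1% ± 0.184 in WT, and Hk2 14.6% ± 0.867 in cKO and 18.3% ± 0.621 in WT (SD, n = 3 each). The log2 ratio of Hk2 to Hk1 within a library, which does not depend on the scaling between libraries, was -1.84, -1.96 and -2.04 in cKO, against -1.60, -1.56 and -1.51 in WT. The groups did not overlap and differed by -0.39 (two-sided exact permutation p = 0.1). Among the isoenzyme ratios formed, Pfkp to Pfkl, Eno3 to Eno1 and Slc16a3 to Slc16a1, given below, did not overlap either. The ratios Pfkm to Pfkl, Aldoc to Aldoa, Eno2 to Eno1, Pdk1 to Pdk2, Pdk3 to Pdk2 and Slc2a3 to Slc2a1 overlapped. Of all single genes tested, 31.6% did not overlap.

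Phosphofructokinase commits sugar to glycolysis, and of its 3 genes the platelet form Pfkp fell. Pfkp (ENSMUSG00000021196) had 1374, 1406 and 1396 normalised reads in the cKO libraries, against 1705, 1760.0 and 1825 in the WT libraries. The cKO libraries lay close together and the highest of them was well below the lowest WT library. Its means were 1392 ± 16.7 in cKO and 1764 ± 60.1 in WT (SD, n = 3 each), a log2 difference of -0.34 ± 0.06 or 0.790-fold (95% interval 0.726 to 0.860), with the smallest adjusted p of the 38 genes (limma adjusted p = 0.00520), and its adjusted p stayed at or below 0.0364 when any one library was left out. The liver form Pfkl had 1287, 1430.0 and 1433 normalised reads in the cKO libraries, against 1325, 1378 and 1344 in the WT libraries, and the groups overlapped (limma adjusted p = 0.773). The muscle form Pfkm had 148, 152 and 154 normalised reads in the cKO libraries, against 144, 159 and 143 in the WT libraries, and the groups overlapped as well (limma adjusted p = 0.922). The share of Pfkp in phosphofructokinase transcripts per kb was 44.3% ± 1.11 in cKO and 50.7% ± 0.949 in WT, and that of Pfkl was 48.8% ± 1.23 in cKO and 43.1% ± 0.653 in WT (SD, n = 3 each). Per kb, Pfkl was thus the larger share in cKO and Pfkp in WT, in each library of both groups. This order rests on the transcript lengths used. In normalised reads without regard to length, Pfkp was above Pfkl in cKO replicate 1 too (1374 against 1287). The log2 ratio of Pfkp to Pfkl was 0.09, -0.02 and -0.04 in cKO, against 0.36, 0.35 and 0.44 in WT, a difference of -0.38 without overlap (two-sided exact permutation p = 0.1). Of the exonic bases of Pfkp, 5.58% overlap those of Pitrm1 on the other strand, whose log2 difference was 0.02 (limma adjusted p = 0.938), and the strand setting of the counting is not given in the sources used here.

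**Figure D3:**
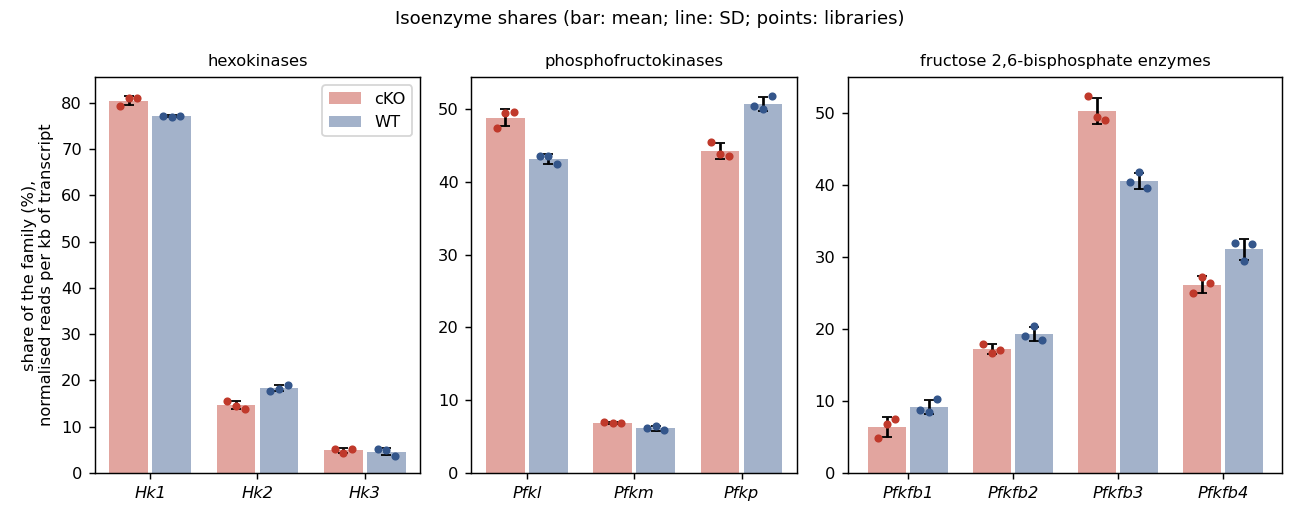
Share (%) of each isoenzyme in its family's transcripts, from normalised reads per kb, for hexokinases, phosphofructokinases and the enzymes of fructose 2,6-bisphosphate, with cKO left of WT, bars for means, lines for SD and points for 3 libraries each. Hk2 holds 14.6% in cKO and 18.3% in WT, Pfkp 44.3% in cKO and 50.7% in WT, and Pfkfb3 50.3% in cKO and 40.6% in WT.

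The Pfkfb enzymes make and break fructose 2,6-bisphosphate, the main activator of phosphofructokinase, and these 4 genes did not move together. All 4 had groups that did not overlap, as had 31.6% of all genes tested, Pfkfb3 with cKO above WT and the other 3 with cKO below WT, of which Pfkfb4 alone passed the test. Pfkfb3 (ENSMUSG00000026773), the form whose kinase activity far exceeds its phosphatase activity, had 1428, 1421 and 1404 normalised reads in the cKO libraries, against 1236, 1234 and 1160.1 in the WT libraries. Its means were 1418 ± 12.2 in cKO and 1210.2 ± 43.4 in WT (SD, n = 3 each), a rise of 0.23 ± 0.06 on the log2 scale or 1.17-fold (95% interval 1.07 to 1.28), limma adjusted p = 0.0316. The Pfkfb3 call was lost without cKO replicate 1 or 3 or WT replicate 1, 2 or 3 (highest limma adjusted p 0.123). Pfkfb4 (ENSMUSG00000025648) had 513, 588 and 568 normalised reads in the cKO libraries, against 737, 653 and 701 in the WT libraries. Its means were 556 ± 39.2 in cKO and 697 ± 41.9 in WT (SD, n = 3 each), and it fell with a log2 difference of -0.33 ± 0.08 or 0.798-fold (95% interval 0.704 to 0.904), limma adjusted p = 0.0316. The Pfkfb4 call was lost without cKO replicate 1 or 3 or WT replicate 1 or 3 (highest limma adjusted p 0.121). Pfkfb2, the heart form, had 467, 456 and 467 normalised reads in the cKO libraries, against 558, 576 and 515 in the WT libraries, and did not pass the test (-0.24 ± 0.08, limma adjusted p = 0.0733). Pfkfb1, the liver and muscle form, was low, with 49.0, 73.9 and 80.5 normalised reads in the cKO libraries, against 99.9, 93.8 and 112 in the WT libraries (-0.61 ± 0.21, limma adjusted p = 0.0892). Per kb, the share of Pfkfb3 in the family was 50.3% ± 1.80 in cKO and 40.6% ± 1.10 in WT, and that of Pfkfb4 was 26.2% ± 1.12 in cKO and 31.0% ± 1.44 in WT (SD, n = 3 each).

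Of the 12 measured genes of the chain from Gpi1 to Ldha, 3 rose and none fell, beside 5.08% and 4.97% of all genes tested. Their median log2 difference was 0.16, beside -0.000864 over all genes tested. The phosphofructokinases, of which Pfkp fell, also act between glucose 6-phosphate and lactate but are described above and were not counted here. Gpi1 (ENSMUSG00000036427), which turns glucose 6-phosphate into fructose 6-phosphate, had 10646, 10287 and 10600.5 normalised reads in the cKO libraries, against 8956, 9311 and 8915 in the WT libraries. All cKO values lay above all WT values, and its means were 10511 ± 195 in cKO and 9061 ± 218 in WT (SD, n = 3 each), a rise of 0.21 ± 0.05 on the log2 scale or 1.16-fold (95% interval 1.07 to 1.25), limma adjusted p = 0.0246. The call of Gpi1 was lost without cKO replicate 1 or 3 or WT replicate 1 or 3 (highest limma adjusted p 0.104). Of its exonic bases 11.5% overlap the much lower Gm26762 on the other strand. Aldoa, the main aldolase at 98.9% of aldolase transcripts per kb in both groups, had 5508, 6087 and 5856 normalised reads in the cKO libraries, against 5611, 6101 and 6119.6 in the WT libraries, and the groups overlapped (limma adjusted p = 0.781). Aldoc had 95.4, 126 and 123 normalised reads in the cKO libraries, against 129.6, 121 and 127 in the WT libraries, and the groups overlapped too (limma adjusted p = 0.594). Tpi1, which interconverts the triose phosphates, had 1451, 1481 and 1522 normalised reads in the cKO libraries, against 1239.7, 1469 and 1362 in the WT libraries, with the second WT library within the cKO range (0.13 ± 0.07, limma adjusted p = 0.245).

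Gapdh and Pgk1, which catalyse the neighbouring steps that yield the first NADH and the first ATP, rose together. Gapdh (ENSMUSG00000057666) had 9151, 9770.0 and 9759 normalised reads in the cKO libraries, against 7598, 8309.9 and 8153 in the WT libraries. The means were 9560.0 ± 355 in cKO and 8020.3 ± 374 in WT (SD, n = 3 each), a log2 difference of 0.25 ± 0.06 or 1.19-fold (95% interval 1.09 to 1.30), limma adjusted p = 0.0209. The Gapdh call was lost without cKO replicate 3 or WT replicate 1 or 3 (highest limma adjusted p 0.0868). Pgk1 (ENSMUSG00000062070) had 2904, 2783 and 2912 normalised reads in the cKO libraries, against 2114, 2457 and 2393 in the WT libraries. The means were 2866 ± 72.2 in cKO and 2321 ± 182 in WT (SD, n = 3 each), a log2 difference of 0.31 ± 0.06 or 1.24-fold (95% interval 1.12 to 1.37), limma adjusted p = 0.0168. The Pgk1 call was lost without cKO replicate 3 or WT replicate 1 or 3 (highest limma adjusted p 0.0665). For both genes WT replicate 1 was the lowest of all libraries, and no cKO library reached down into the WT range. Gapdh and Pgk1 have near copies elsewhere in GENCODE M21, 77 and 4 genes by a match of at least 95% over at least 300 bases, and the 3 copies of Gapdh with a row held 0.364% of its level.

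The later steps of the chain gave no call. Pgam1 had 717, 764 and 674 normalised reads in the cKO libraries, against 708, 738 and 684 in the WT libraries, and the groups overlapped (limma adjusted p = 0.922). Eno1, which held 90.2% of enolase transcripts per kb in cKO and 89.4% in WT, had 6492, 6228 and 6152 normalised reads in the cKO libraries, against 5574, 6500.4 and 5861 in the WT libraries, and the groups overlapped (limma adjusted p = 0.478). Eno3, the muscle enolase, had 518, 525 and 507 normalised reads in the cKO libraries, against 517, 561 and 548 in the WT libraries (limma adjusted p = 0.602). Its log2 ratio to Eno1 was lower in each cKO library than in each WT library, by -0.14 on average (two-sided exact permutation p = 0.1). Eno2 had only 16.0, 23.7 and 28.9 normalised reads in the cKO libraries, against 22.0, 6.32 and 4.89 in the WT libraries, and the WT values were spread over a wider range than the distance between the group means (1.22 ± 0.50, limma adjusted p = 0.146). Without WT replicate 1 its limma adjusted p was 0.0442. Pkm, pyruvate kinase, had 8539, 8990.1 and 8645 normalised reads in the cKO libraries, against 7264, 8287 and 7467 in the WT libraries, without overlap but not past the threshold (0.19 ± 0.06, limma adjusted p = 0.0747). Of its exonic bases 15.3% are shared with Gm49759 on the same strand (log2 difference -0.20, limma adjusted p = 0.0912). Ldha, which reduces pyruvate to lactate, had 5321, 5293 and 5074 normalised reads in the cKO libraries, against 4065, 4993 and 4218 in the WT libraries, also without overlap (0.25 ± 0.07, limma adjusted p = 0.0581). The WT values of Ldha were the more spread, with replicate 2 near the cKO values, and without that library Ldha and Pkm passed (limma adjusted p = 0.0124 and 0.0357). DESeq2 on recovered reads also called Ldha (adjusted p = 0.0299).

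**Figure D4:**
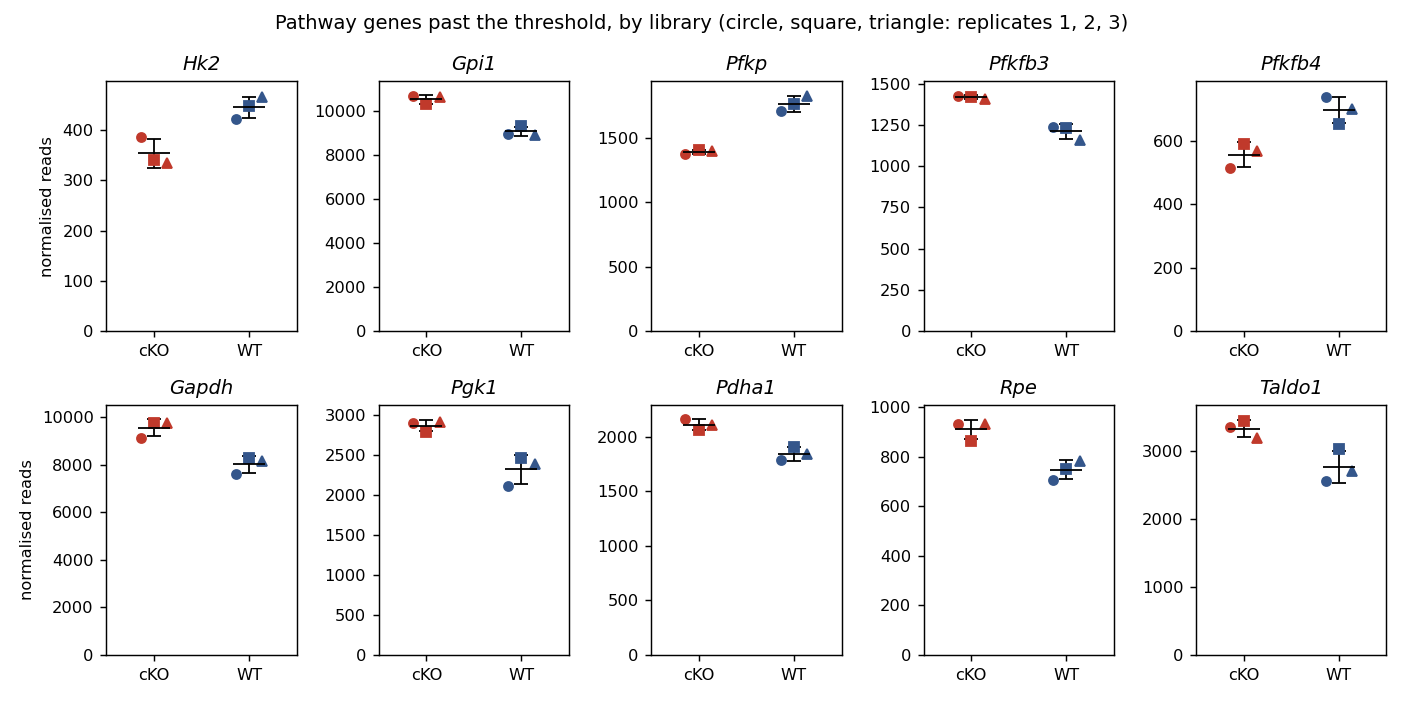
Normalised reads (axes from 0) in each library for the 10 genes past the threshold, with cKO left of WT, circles, squares and triangles for replicates 1, 2 and 3, and bars for the mean and SD of 3 libraries. The groups do not overlap for any of the 10, and the distance between them is small beside the level, as for Gpi1 with means of 10511 in cKO and 9061 in WT.

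At the pyruvate and lactate branch, 1 of 7 genes rose and none fell, beside 5.08% and 4.97% of all genes tested. Pdha1 (ENSMUSG00000031299), the catalytic subunit of pyruvate dehydrogenase, had 2164, 2059 and 2107 normalised reads in the cKO libraries, against 1782, 1909.6 and 1839 in the WT libraries. Its means were 2110.2 ± 52.7 in cKO and 1844 ± 63.9 in WT (SD, n = 3 each), a log2 difference of 0.20 ± 0.05 or 1.14-fold (95% interval 1.05 to 1.24), just past the threshold (limma adjusted p = 0.0474). The call was lost without cKO replicate 1 or 3 or WT replicate 1, 2 or 3 (highest limma adjusted p 0.146), and DESeq2 on recovered reads did not make it (adjusted p = 0.0583). Both rescalings of the libraries, to equal upper quartiles and to equal sums without immunoglobulin genes, ended it too. So did replicate number added to the fit as a block. Of its exonic bases 16.1% overlap the lower Map3k15 on the other strand, with a log2 difference of 0.13 (limma adjusted p = 0.718). Pdhb, the partner subunit, had 1916, 1855 and 1887 normalised reads in the cKO libraries, against 1767, 1749 and 1729 in the WT libraries, without overlap (0.11 ± 0.05, limma adjusted p = 0.206). The kinases that switch the complex off did not pass the test. Pdk2 had 157, 175 and 163 normalised reads in the cKO libraries, against 205, 203 and 187 in the WT libraries, with every cKO library below every WT library (-0.26 ± 0.12, limma adjusted p = 0.175). Pdk1, the most abundant of the kinases per kb, had 1802, 1543 and 1716 normalised reads in the cKO libraries, against 1447, 1736 and 1737 in the WT libraries (limma adjusted p = 0.792), and Pdk3 had 390.4, 302 and 345 normalised reads in the cKO libraries, against 292, 327 and 323 in the WT libraries (limma adjusted p = 0.482), both with overlap. The monocarboxylate transporters Slc16a1 (MCT1) and Slc16a3 (MCT4) overlapped as well. Slc16a1 had 178, 195 and 189.9 normalised reads in the cKO libraries, against 199.9, 236 and 182 in the WT libraries (limma adjusted p = 0.574). Slc16a3 had 50.8, 43.6 and 47.5 normalised reads in the cKO libraries, against 43.9, 40.0 and 40.1 in the WT libraries (limma adjusted p = 0.602). Their log2 ratio, Slc16a3 to Slc16a1, was -1.79, -2.14 and -1.98 in cKO, against -2.16, -2.53 and -2.15 in WT, which did not overlap by a narrow margin (two-sided exact permutation p = 0.1).

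In the pentose phosphate pathway, 2 of 7 genes rose, both in the non-oxidative arm, and none fell. Over all genes tested, 5.08% rose and 4.97% fell. The median log2 difference of the 7 genes was 0.15. In the oxidative arm, G6pdx, which opens the pathway and yields NADPH, had 720.3, 748 and 789 normalised reads in the cKO libraries, against 612, 666 and 701 in the WT libraries. The groups did not overlap, but the lowest cKO and the highest WT library were close (0.19 ± 0.08, limma adjusted p = 0.140). Pgls, the lactonase of the next step, had 2189, 2348 and 2362 normalised reads in the cKO libraries, against 1948, 2188 and 2079.7 in the WT libraries, again without overlap (0.15 ± 0.06, limma adjusted p = 0.145). Of its exonic bases 20.6% overlap Fam129c on the same strand, which rose by 0.45 on the log2 scale (limma adjusted p = 0.0248), so reads of the pair cannot be told apart there. Pgd, which yields the second NADPH, had 1893, 1903 and 1702 normalised reads in the cKO libraries, against 1759, 1879 and 1836 in the WT libraries, and the groups overlapped (0.00 ± 0.06, limma adjusted p = 0.974).

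Rpe and Taldo1 were the genes that rose. Rpe (ENSMUSG00000026005), the epimerase that makes xylulose 5-phosphate, had 932, 864 and 933 normalised reads in the cKO libraries, against 707, 750.4 and 784 in the WT libraries. All cKO values lay above all WT values. The means were 909.5 ± 39.2 in cKO and 747 ± 38.3 in WT (SD, n = 3 each), a log2 difference of 0.28 ± 0.07 or 1.22-fold (95% interval 1.09 to 1.35), limma adjusted p = 0.0295. The Rpe call was lost without cKO replicate 1 or 3 or WT replicate 1, 2 or 3 (highest limma adjusted p 0.107). Kansl1l, on the other strand, overlaps 17.9% of its exonic bases and did not pass the test (-0.07, limma adjusted p = 0.660). Taldo1 (ENSMUSG00000025503), transaldolase, had 3348, 3447 and 3193 normalised reads in the cKO libraries, against 2556, 3026 and 2712 in the WT libraries. The means were 3329 ± 128 in cKO and 2765 ± 239 in WT (SD, n = 3 each), a log2 difference of 0.27 ± 0.07 or 1.21-fold (95% interval 1.09 to 1.34), limma adjusted p = 0.0307. The Taldo1 call was lost without cKO replicate 1, 2 or 3 or WT replicate 1 or 3 (highest limma adjusted p 0.110). Tkt, transketolase, the partner of transaldolase, had 4175, 3976 and 3871 normalised reads in the cKO libraries, against 3502, 4134 and 3773 in the WT libraries, and the groups overlapped (0.08 ± 0.07, limma adjusted p = 0.488). Rpia, which isomerises ribulose 5-phosphate to ribose 5-phosphate, had 931, 1078 and 986 normalised reads in the cKO libraries, against 1110.2, 1141 and 1076 in the WT libraries, with the second cKO library just inside the WT range (-0.15 ± 0.07, limma adjusted p = 0.187).

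The genes were grouped by their place in the pathway. Transport and commitment holds 12 genes: transporters of glucose, hexokinases, phosphofructokinases and Pfkfb genes. Of these 12, 1 rose and 3 fell, Pfkp among them, with a median log2 difference of -0.05. The chain, the pyruvate and lactate branch and the pentose phosphate pathway had medians of 0.16, 0.11 and 0.15 and no fallen member. The shares over all genes tested were 5.08% risen and 4.97% fallen, with a median of -0.000864. Each gene was centred on its mean over the 6 libraries and the median was taken over the genes of an arm. For transport and commitment it was -0.05, -0.07 and 0.00 in cKO, against 0.09, 0.08 and 0.00 in WT, and the third libraries of both groups met. For the chain it was 0.06, 0.09 and 0.08 in cKO, against -0.13, 0.03 and -0.08 in WT, and for the pentose phosphate genes 0.05, 0.07 and 0.08 in cKO, against -0.16, 0.00 and -0.05 in WT. In both the cKO libraries lay above the WT libraries, of which replicate 2 was the nearest. For the pyruvate and lactate branch it was 0.12, -0.02 and 0.06 in cKO, against -0.04, -0.01 and -0.07 in WT, and the groups overlapped. The 38 genes together took 0.394%, 0.400% and 0.400% of the normalised reads in cKO, against 0.352%, 0.387% and 0.367% in WT. These groupings were made with the results known, so their medians are descriptions and no difference between arms was tested.

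**Figure D5:**
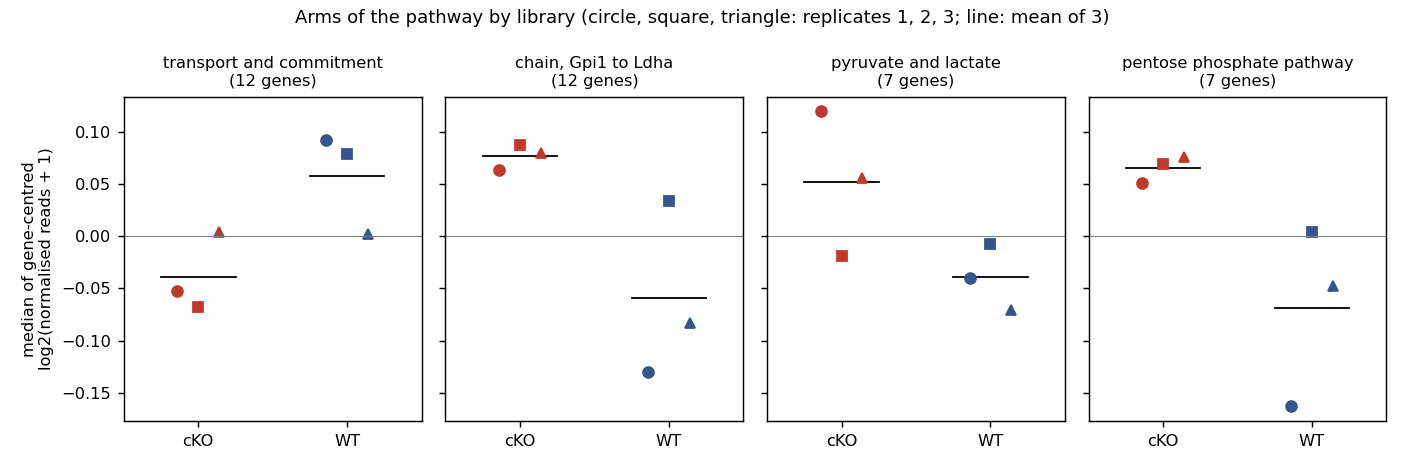
Median over the genes of each arm of log2(normalised reads + 1), centred for each gene on its mean over the 6 libraries, with cKO left of WT, circles, squares and triangles for replicates 1, 2 and 3, and lines for the mean of 3. The cKO libraries stand above the WT libraries in the chain and in the pentose phosphate pathway, and in transport and commitment the groups meet at replicate 3.

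Beyond the 39 genes, a list of 50 further genes of these and neighbouring sugar pathways was read from the same fit. Of the 39 with a row, none rose and 3 fell, beside 5.08% and 4.97% of all genes tested. In the limma fit 11 of the 39 were under an unadjusted p of 0.05, beside 26.8% of all genes tested, and edgeR called 1 of them as risen. This was Bsg, the partner protein of the lactate transporters, chosen for naming after its value was seen (log2 difference 0.18 ± 0.05, limma adjusted p = 0.0526, edgeR adjusted p = 0.0481). Slc16a6, a relative of the lactate transporters, had 1481, 1586 and 1566 normalised reads in the cKO libraries, against 1879.9, 1871 and 1978 in the WT libraries (-0.31 ± 0.06, limma adjusted p = 0.0100). It lost its call only without WT replicate 3 (0.0562). G6pc3, the glucose 6-phosphatase found in most tissues, had 557, 553 and 527 normalised reads in the cKO libraries, against 737, 689 and 657 in the WT libraries (-0.35 ± 0.07, limma adjusted p = 0.0190), lost without cKO replicate 3 or WT replicate 1 (highest limma adjusted p 0.0767). Pgm2l1, a relative of phosphoglucomutase, had 291, 399.9 and 300.3 normalised reads in the cKO libraries, against 473, 447 and 472 in the WT libraries (-0.50 ± 0.12, limma adjusted p = 0.0256), lost without cKO replicate 1 or 3 or WT replicate 1 or 3 (highest limma adjusted p 0.0968).

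Of 32 regulators of glucose metabolism, 29 have a row, and 3 rose and 3 fell, which is 10.3% each, beside 5.08% and 4.97% of all genes tested. Egln2, an oxygen-dependent prolyl hydroxylase that marks hypoxia-inducible factors for degradation, rose, with 4896, 4387 and 4183 normalised reads in the cKO libraries, against 3145, 3476 and 2729 in the WT libraries (0.53 ± 0.09, limma adjusted p = 0.00559). Arrdc4, a glucose-responsive relative of Txnip, was low and rose, with 48.1, 35.1 and 32.0 normalised reads in the cKO libraries, against 14.3, 6.32 and 5.87 in the WT libraries (2.08 ± 0.37, limma adjusted p = 0.00841). Epas1, which encodes HIF-2α, was low and rose too, with 25.9, 22.7 and 39.2 normalised reads in the cKO libraries, against 12.1, 7.38 and 9.78 in the WT libraries (1.48 ± 0.34, limma adjusted p = 0.0230). Prkab2, a subunit of the energy sensor AMPK, fell, with 644, 675 and 565 normalised reads in the cKO libraries, against 902, 874 and 849 in the WT libraries (-0.48 ± 0.08, limma adjusted p = 0.00566). Stk11, which encodes the kinase LKB1 upstream of AMPK, fell, with 3051, 3310.0 and 3075 normalised reads in the cKO libraries, against 3818, 3664 and 3588 in the WT libraries (-0.23 ± 0.06, limma adjusted p = 0.0257). Myc, a transcription factor known to drive glycolytic genes, fell, with 10666, 7501 and 10573 normalised reads in the cKO libraries, against 13323, 11567 and 14087 in the WT libraries (-0.45 ± 0.12, limma adjusted p = 0.0428). The groups did not overlap for any of these 6. Calls of Egln2, Arrdc4 and Prkab2 held with any one library left out. Epas1 lost its call without cKO replicate 3 or WT replicate 2 or 3 (highest limma adjusted p 0.103), Stk11 without cKO replicate 1 or 3 or WT replicate 1, 2 or 3 (highest limma adjusted p 0.102) and Myc without cKO replicate 3 or WT replicate 1 or 3 (highest limma adjusted p 0.150). Hif1a itself had means of 2852 ± 220.2 in cKO and 2657 ± 74.6 in WT (SD, n = 3 each), with overlap (limma adjusted p = 0.351).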

How the data were processed

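RNA was measured in 6 libraries of sorted splenic marginal zone B cells, 3 labelled cKO and 3 labelled WT. Reads went through bcl2fastq 2.17, Trimmomatic 0.36 and STAR 2.5.2b, and mm9 is named as the build, per the submitters' processing notes. Counting tool, annotation, strand setting and scaling tool: not given in the sources used here. The deposited signal of a gene is its read count, which the authors divided by one factor per library, since 100.0% of the values in each library are whole multiples of 1 read (0.891 to 1.10 units) within 0.02 of a read. The smallest value of cKO replicate 1 is 2 reads. Each gene has at least 61 recovered reads over the 6 libraries, and genes with fewer were not analysed here. Chi-square per gene between libraries of one group was 6.45 to 12.8, above sampling noise, so each counts as its own library.

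Groups were compared with limma 3.58.1 under R 4.3.3 (eBayes with a trend, two-sided) on log2(value + 1), with genotype as the only term, for the 14855 genes with a mean of at least 10. Benjamini-Hochberg adjustment ran over all of them. The log2(value + 1) scale understates the change of low genes. Alternatives were other pseudocounts, filters and scalings, edgeR 4.0.16 and DESeq2 1.42.0 on recovered reads, a replicate block, and each library left out. The procedure was checked on simulated data whose changes were larger than those of the 10 called pathway genes, so detection at their size was not checked.

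The genes, lists and groupings were chosen with earlier results of these data known. All 39 genes are named, from other lists up to 8 called genes, and from marker lists the 3 highest. One follicular B cell marker is not reported here, and its list was summed and counted without it. Hif1a was added after its values were seen. Names came from GENCODE M21, which named 14808 identifiers and left 56 unnamed. Levels per kb used the length of one principal transcript per gene in GENCODE M21. Promoter sequences are RefSeq's on GRCm38.p6.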

Additional observations from a re-analysis of the deposited data

How the results depend on the processing

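Depth limits Eno2, Hk3, Slc16a3 and Pfkfb1 most, with 5 to 55 recovered reads in their lowest library. Under the other pseudocounts, no filter, the filter at 100 and edgeR, each of the 10 called genes kept its call and no other pathway gene gained one. DESeq2 dropped Pdha1 and added Ldha, and robust moderation added Ldha. Equal upper quartiles and equal sums without the 225 immunoglobulin genes dropped Pdha1 and turned the log2 difference of Pgd from 0.00 to -0.0055 and -0.0098. These scalings moved the median of all genes to -0.01 and -0.02. Whether the replicate numbers pair the libraries is not given in the labels. Deviations of same-numbered libraries from their group means correlated at -0.0745, -0.0200 and 0.147. Of the cKO libraries, replicates 1 and 2 correlated better with another number, and replicate 3 best with its own. With 3 libraries in a group these correlations cannot decide it. With the replicate block, 767 genes were called higher and 784 lower, Hk2 and Pdha1 were lost, Pkm and Ldha were gained, and the cause was not tested.

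With one library left out, 247 to 787 genes were called higher and 221 to 943 lower, and of the pathway genes 0 to 6 higher and 1 to 2 lower, with a median log2 difference of 0.0324 to 0.124. Sign changes came only in uncalled genes, whose log2 differences ranged from -0.0533 to 0.194 for Hk3, -0.0019 to 0.0756 for Pfkm, -0.0722 to 0.0075 for Aldoa, -0.0300 to 0.0602 for Pgam1, -0.0447 to 0.106 for Pdk1 and -0.0232 to 0.0574 for Pgd. The log2 ratio of Pfkm to Pfkl differed by -0.0450 to 0.0256.

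Counts in the other lists moved as follows under other settings. The further pathway genes had 1 higher, against 0, with the filter at 100, edgeR or robust moderation, and 1 to 4 lower with a library left out. Regulators had 1 higher, against 3, with the filter at 100, and 1 to 3 lower with a library left out. Hypoxia targets had 1 higher, against 2, with DESeq2, both scalings or the block, and 1 to 2 higher and 0 to 3 lower with a library left out. NADPH genes had 4 higher with the block and 1 lower with edgeR, against 2 each, and 0 to 2 in both directions with a library left out. Genes listed for the tricarboxylic acid cycle, Mdh1 included, had 1 higher, against 2, with equal sums without immunoglobulin genes, and 1 to 3 with a library left out. B cell markers, with 0 called, had 1 higher with DESeq2 or robust moderation, 1 lower with these or either scaling, and 0 to 1 higher with a library left out. Follicular markers had 1 higher, against 0, with DESeq2 or robust moderation, 1 lower, against 3, with robust moderation, and 0 to 1 higher and 0 to 4 lower with a library left out. Plasma cell markers had 2 lower with DESeq2 and 0 with robust moderation, against 1, and 0 to 2 with a library left out. With a library left out, macrophage markers had 0 to 2 higher and 0 to 4 lower, and platelet markers 0 to 1 lower.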

Other observations

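A list of 20 genes of the tricarboxylic acid cycle also holds the cytosolic Mdh1, which works outside the mitochondrial cycle. Of the 20, 2 rose, Mdh1 and Cs, and none fell, beside 5.08% and 4.97% of all genes tested. The 3 cKO values lay above the 3 WT values for 9 and below them for none, beside 15.9% and 15.6% of all genes tested, and the median log2 difference was 0.11. Mdh1, the cytosolic malate dehydrogenase that carries reducing equivalents between cytosol and mitochondria, had 2995, 2996 and 3098 normalised reads in the cKO libraries, against 2250.0, 2449 and 2372 in the WT libraries (0.36 ± 0.05, limma adjusted p = 0.00363), and it was called with any one library left out. Cs, citrate synthase, had 3909, 4098 and 4016 normalised reads in the cKO libraries, against 3399, 3658 and 3418 in the WT libraries (0.20 ± 0.05, limma adjusted p = 0.0397), and its call was lost without cKO replicate 1, 2 or 3 or WT replicate 1 or 3 (highest limma adjusted p 0.137).

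Of 25 further genes known as hypoxia targets, 23 have a row, and 2 rose and 2 fell, beside 5.08% and 4.97% of all genes tested. Ddit4, an inhibitor of mTORC1 signalling, had 3424, 2841 and 2695 normalised reads in the cKO libraries, against 1843, 2269 and 1977 in the WT libraries (0.55 ± 0.10, limma adjusted p = 0.00735), and it was called with any one library left out. Gys1, glycogen synthase, had 735, 725 and 780.1 normalised reads in the cKO libraries, against 599.6, 638 and 639 in the WT libraries (0.26 ± 0.07, limma adjusted p = 0.0437), lost without cKO replicate 1 or 3 or WT replicate 1, 2 or 3 (highest limma adjusted p 0.151). Among the fallen, Ankrd37 had 183, 154 and 148 normalised reads in the cKO libraries, against 338, 272 and 234 in the WT libraries (-0.79 ± 0.15, limma adjusted p = 0.0110), lost without WT replicate 1 (highest limma adjusted p 0.0502). Kdm3a, a histone demethylase, had 1485, 1729 and 1555 normalised reads in the cKO libraries, against 2156, 1883 and 2073 in the WT libraries (-0.36 ± 0.07, limma adjusted p = 0.0152), lost without cKO replicate 3 or WT replicate 1 or 3 (highest limma adjusted p 0.0674).

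Of 21 genes linked to NADPH or to antioxidant defence, 18 have a row. Of these, 2 rose and 2 fell, beside 5.08% and 4.97% of all genes tested. Prdx1, a peroxiredoxin, had 2365, 2275 and 2465 normalised reads in the cKO libraries, against 1839, 2134 and 1879 in the WT libraries (0.28 ± 0.07, limma adjusted p = 0.0257), lost without cKO replicate 1 or 3 or WT replicate 1 or 3 (highest limma adjusted p 0.105). Gpx1, a glutathione peroxidase, had 3959.7, 3956 and 3820.0 normalised reads in the cKO libraries, against 2778, 3633 and 3144 in the WT libraries (0.31 ± 0.08, limma adjusted p = 0.0434), lost without cKO replicate 1, 2 or 3 or WT replicate 1 or 3 (highest limma adjusted p 0.130). Gss, glutathione synthetase, had 177, 163 and 171 normalised reads in the cKO libraries, against 228, 235 and 242 in the WT libraries (-0.46 ± 0.11, limma adjusted p = 0.0245), lost without cKO replicate 3 or WT replicate 1, 2 or 3 (highest limma adjusted p 0.0956). Nadk2, the mitochondrial NAD kinase, had 267, 305 and 221 normalised reads in the cKO libraries, against 363, 391 and 331 in the WT libraries (-0.46 ± 0.13, limma adjusted p = 0.0450), lost without cKO replicate 1 or 3 or WT replicate 1, 2 or 3 (highest limma adjusted p 0.144).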
